A study of Homo sapiens with 6 samples.

Results

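The MYC, MAX and MXD network is a small set of transcription factors that compete for the same partner and the same DNA sites. Its 10 genes were taken by symbol from the 30270 genes of the deposited count table. They are the activators MYC, MYCN and MYCL, the common partner MAX, the repressors MXD1, MXD3, MXD4, MXI1 and MNT, and MGA, a large repressor scaffold. Of the 10 genes, 9 had enough reads to be tested between the 2 groups. The remaining gene, MYCN, had at most 9 counts in any library.

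HEK 293T cells are a human embryonic kidney line that carries the SV40 large T antigen. The study compared wild type cells (WT) with a TENT3A/B knockout, in which the uridylyltransferases TUT4 and TUT7 are meant to be missing (ΔTUT4/7), to ask how uridylation of RNA 3′ ends shapes the transcriptome. Total RNA was sequenced after removal of ribosomal RNA from 3 biological replicates of each group. The knockout was 1 cell line that came from another laboratory, both lines grew in DMEM with serum and antibiotics, and the labels gave no treatment for either group. Differences between these 2 lines, from the knockout or from the separate passage of the lines, cannot be told apart.

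Library totals ran from 18757228 to 33148937 counts. Values are given as CPM, the count scaled to a fixed total after TMM adjustment of library size, with the mean ± SD over 3 libraries. The targeted genes were looked at first. TUT7 fell from 62.6 ± 2.17 to 26.3 ± 1.04 CPM, but TUT4 stood at 211 ± 5.08 CPM in WT and at 906 ± 21.4 CPM in the libraries labelled ΔTUT4/7, a 4.29-fold increase (edgeR quasi-likelihood test, adjusted p = 7.89e-19). The transcript level of TUT4 thus did not fall with that of TUT7. A count per gene measures neither the protein nor the sequence of the transcript, so the TUT4 level cannot decide whether the label is right. Every direction given here rests on what the libraries are labelled. Of 9 tested genes that mark the HEK 293 lineage, 3 were higher and 6 were lower in the libraries labelled ΔTUT4/7, and the neurofilament gene NEFM had at least 18074 counts in every WT library and at most 1 in any library labelled ΔTUT4/7. Of 12 listed markers of other cell types, 6 were not analysed here, 4 had too few reads to be tested, and the collagen genes COL1A1 and COL3A1 were lower. The part of these differences in the results below was not tested. In a bulk culture, fewer cells that express a gene and less RNA per cell cannot be told apart.

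MYC proteins bind DNA only as pairs with MAX, and the pairs recognise the E-box, the palindrome CACGTG. MYC and MAX together recruit histone acetyltransferases and help RNA polymerase to leave the promoter, and their best known targets are the genes for ribosome assembly, nucleotide synthesis and cell growth. MXD proteins and MNT pair with the same MAX and sit on the same sites with the SIN3 and histone deacetylase corepressor, so the balance among MAX partners is held to set the level of shared targets.

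All 9 tested network genes differed between the groups. The genes MYC, MXI1, MAX, MNT and MXD4 were higher in the libraries labelled ΔTUT4/7, and MYCL, MGA, MXD1 and MXD3 were lower. No change reached 2-fold. A call at a false discovery rate (FDR) under 0.05 was common in these data, since 57.7% of the 23952 tested genes passed it, 28.6% as higher and 29.0% as lower. The CPM ranges of the groups did not overlap for any of the 9, which was true of 62.7% of all tested genes. A change of 2-fold or more was called for 18.3% of all tested genes and for none of the members.

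**Figure D1:**
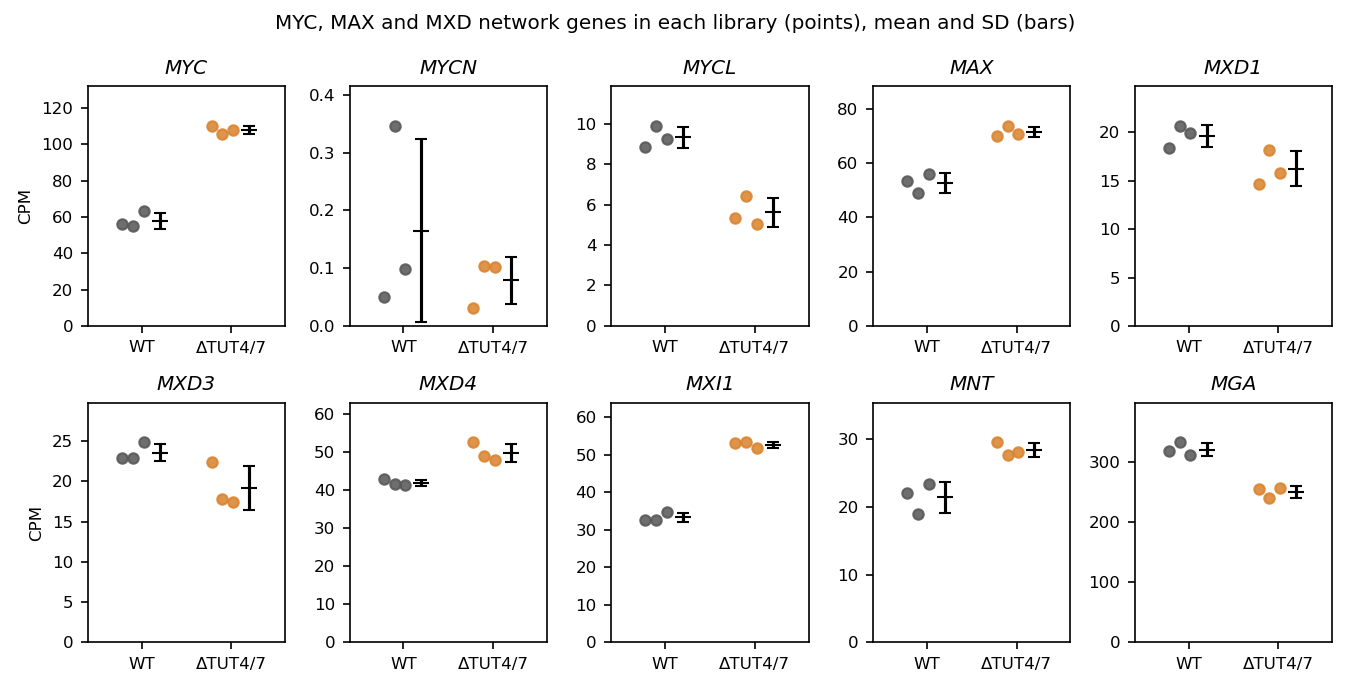
CPM of the 10 network genes in each library (points; grey WT, orange labelled ΔTUT4/7), with the mean and SD over 3 libraries as bars beside them and a separate vertical scale for each gene. MYC sat at 54.8 to 63.0 CPM in WT and at 105 to 110 CPM in the libraries labelled ΔTUT4/7, while MYCN stayed below 0.35 CPM in every library.

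MYC (chr8:127735434-127742951 of hg38, plus strand, 3 exons in the canonical transcript) is the activator that proliferating cells use most widely. Its level was 55.9, 54.8 and 63.0 CPM in the 3 WT libraries and 110, 105 and 108 CPM in those labelled ΔTUT4/7. Each of the latter lay far above every WT library. The group means were 57.9 ± 4.45 and 108 ± 2.31 CPM, a 1.86-fold increase (log2 fold change 0.89 ± 0.06 SE, edgeR adjusted p = 1.25e-11). It was the largest increase among the network genes. None of the 36 expressed genes within 5 Mb rose as far, and their median log2 fold change was 0.13.

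MYCL (chr1:39895426-39902256, minus strand, 2 exons) encodes a family member with a weaker transactivation domain that is known from small cell lung cancer. It was counted at 8.86, 9.88 and 9.26 CPM in WT and at 5.34, 6.44 and 5.06 CPM in the libraries labelled ΔTUT4/7. Both ranges were narrow and did not meet. From 9.33 ± 0.52 to 5.61 ± 0.73 CPM, MYCL was 1.67-fold lower (log2 fold change -0.74 ± 0.13, edgeR adjusted p = 3.20e-05), so MYC and MYCL moved in opposite directions. Among 119 expressed neighbours of MYCL, 9 fell further.

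MYCN (chr2:15940550-15947007, plus strand, 3 exons) encodes the family member of the embryonic nervous system and of neuroblastoma. Its counts were 1, 9 and 3 in WT and 1, 2 and 2 in the libraries labelled ΔTUT4/7. These values overlap and lie at the edge of detection. Without the filter on low counts, edgeR gave an adjusted p = 0.333, so a difference in MYCN was not detectable at this depth. DDX1, an RNA helicase gene close to MYCN on chromosome 2, was well expressed and rose from 166 ± 6.22 to 277 ± 8.44 CPM (log2 fold change 0.74 ± 0.05, edgeR adjusted p = 6.95e-12).

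MAX (chr14:65006174-65102695, minus strand, 5 exons) encodes the partner that both the activators and the repressors need. WT libraries gave 53.2, 48.8 and 56.1 CPM, and libraries labelled ΔTUT4/7 gave 70.1, 73.7 and 70.8 CPM. The lowest library labelled ΔTUT4/7 was above the highest WT library. MAX rose from 52.7 ± 3.65 to 71.6 ± 1.90 CPM (1.36-fold, log2 fold change 0.44 ± 0.06, edgeR adjusted p = 1.25e-06). The gene shares its locus with FNTB on the opposite strand, which rose by a similar log2 fold change of 0.49, and the sources used here do not say whether reads were counted by strand. Reads of these 2 genes may therefore have been split between them by the authors' counting.

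**Figure D2:**
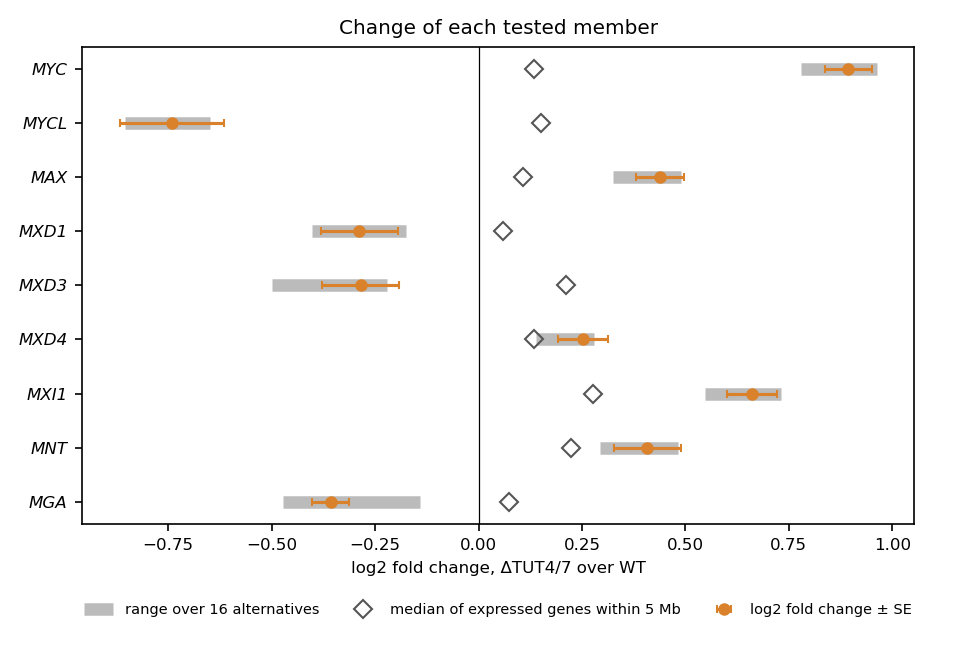
Log2 fold change (horizontal axis, libraries labelled ΔTUT4/7 over WT) of the 9 tested network genes, with the SE as whiskers, the range over 16 other ways to process the data as a grey bar, and the median of expressed genes within 5 Mb as a diamond. Every grey bar stays on 1 side of 0, and MYC at 0.89 and MYCL at -0.74 lie furthest out.

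MXI1 (chr10:110207605-110287365, plus strand, 6 exons), also called MXD2, encodes a MAX-binding repressor of MYC targets. It measured 32.5, 32.5 and 34.8 CPM in WT and 53.0, 53.2 and 51.7 CPM in the libraries labelled ΔTUT4/7. Libraries of a group were nearly level, and the groups lay well apart. The increase from 33.2 ± 1.31 to 52.6 ± 0.81 CPM was 1.58-fold (log2 fold change 0.66 ± 0.06, edgeR adjusted p = 4.05e-09). Of 25 expressed neighbours, 3 rose further, and their median was 0.28.

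MXD4 (chr4:2247432-2262109, minus strand, 6 exons) encodes a repressor associated with cells that leave the cell cycle. Its values were 43.0, 41.7 and 41.3 CPM in WT against 52.6, 49.1 and 47.9 CPM in the libraries labelled ΔTUT4/7. The groups were close but did not overlap. MXD4 rose from 42.0 ± 0.87 to 49.9 ± 2.44 CPM (1.19-fold, log2 fold change 0.25 ± 0.06, edgeR adjusted p = 0.000981). With library size alone as the scaling, the log2 fold change was 0.14 and the call was lost (edgeR adjusted p = 0.0624). Of 66 expressed neighbours of MXD4, 28 rose further, and the median log2 fold change of these neighbours was 0.13.

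MXD1 (chr2:69897688-69942945, plus strand, 6 exons), first named MAD, encodes the founding member of the repressor family and is known for its rise during differentiation. Its WT libraries held 18.4, 20.7 and 19.9 CPM, and those labelled ΔTUT4/7 held 14.7, 18.2 and 15.8 CPM. The highest library labelled ΔTUT4/7 came within a small margin of the lowest WT library. MXD1 fell from 19.7 ± 1.13 to 16.2 ± 1.80 CPM (log2 fold change -0.29 ± 0.09, edgeR adjusted p = 0.0115). The call was lost after a correction for GC content and transcript length (log2 fold change -0.18, edgeR adjusted p = 0.0857) and without replicate 1 of the ΔTUT4/7 libraries (-0.22, edgeR adjusted p = 0.0875). MXD1 overlaps SNRNP27 on the same strand, which had a log2 fold change of -0.11 (edgeR adjusted p = 0.206).

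MXD3 (chr5:177301461-177312757, minus strand, 6 exons) encodes the repressor that is best known from cycling cells. It gave 23.0, 23.0 and 24.8 CPM in WT and 22.4, 17.8 and 17.5 CPM in the libraries labelled ΔTUT4/7. Replicate 1 of the ΔTUT4/7 libraries lay just below WT, and the other two lay clearly below. The means were 23.6 ± 1.09 and 19.2 ± 2.76 CPM (log2 fold change -0.29 ± 0.09, edgeR adjusted p = 0.0121). Without WT replicate 3, ΔTUT4/7 replicate 2 or ΔTUT4/7 replicate 3, the log2 fold change was -0.24, -0.23 or -0.22 and the call was lost, with edgeR adjusted p = 0.0550, 0.0644 or 0.0744. The GC and length correction moved the value to -0.50. MXD3 overlaps PRELID1 on the opposite strand (log2 fold change 1.03) and RAB24 on its own strand (-0.43), so its count is uncertain.

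MNT (chr17:2384073-2401104, minus strand, 6 exons) encodes a widely expressed repressor that is present in resting and dividing cells alike. Its level was 21.99, 18.9 and 23.4 CPM in WT and 29.5, 27.6 and 28.1 CPM in the libraries labelled ΔTUT4/7. The ranges of the groups did not meet. MNT rose from 21.4 ± 2.28 to 28.4 ± 0.98 CPM (1.33-fold, log2 fold change 0.41 ± 0.08, edgeR adjusted p = 0.000191). Its 117 expressed neighbours had a median of 0.22, and 43 of them rose further.

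MGA (chr15:41621224-41773081, plus strand, 24 exons) encodes the scaffold of a variant Polycomb complex, PRC1.6, and pairs with MAX through its own helix-loop-helix domain. Its libraries held 319, 333 and 312 CPM in WT and 256, 240 and 257 CPM in those labelled ΔTUT4/7. The groups were separated by more than the spread within either. MGA fell from 321 ± 10.8 to 251 ± 9.41 CPM (1.28-fold lower, log2 fold change -0.36 ± 0.04, edgeR adjusted p = 5.69e-07). The transcript is the longest of the network at 12193 bases, and the GC and length correction brought the value to -0.14, still called.

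The direction of change did not follow the roles of the genes. Of the 2 tested activators, MYC was higher and MYCL lower. Of the 5 repressors of the MXD and MNT type, MXI1, MXD4 and MNT were higher and MXD1 and MXD3 lower. Among these, only MXI1 and MNT, both higher, stayed called under all 16 alternatives, so the mixed pattern of the repressors rests on less stable calls.

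Levels of different genes were compared as CPM per kb of the canonical transcript. In WT, MGA (26.3 ± 0.89) and MAX (26.2 ± 1.82) came first and overlapped between libraries. MXD3 (22.1 ± 1.02), MYC (15.6 ± 1.2), MXD4 (10.8 ± 0.22), MXI1 (9.58 ± 0.38), MNT (4.35 ± 0.46), MXD1 (3.54 ± 0.20) and MYCL (2.65 ± 0.15) followed without overlap of neighbours, and MYCN was last at 0.063 CPM per kb. In the libraries labelled ΔTUT4/7, MAX (35.6 ± 0.95) came first and MYC (28.9 ± 0.62) second, so MYC moved from place 4 to place 2. MGA (20.6 ± 0.77) and MXD3 (18.0 ± 2.59) overlapped there, and MXI1 (15.2 ± 0.23) passed MXD4 (12.9 ± 0.63). The remaining order, MNT (5.77 ± 0.20), MXD1 (2.92 ± 0.33) and MYCL (1.59 ± 0.21), was the one of WT. These levels depend on the transcript chosen for each gene, and that of MXD3 is only 1067 bases long.

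Summed by role on this per-length scale, transcripts of the 3 activators amounted to 18.3 ± 1.15 CPM per kb in WT and 30.6 ± 0.47 in the libraries labelled ΔTUT4/7. MYC alone made up 85.1% ± 1.56 of the activator sum in WT and 94.7% ± 0.76 under the knockout label. The sum of MXD1, MXD3, MXD4 and MXI1 was 46.1 ± 1.29 and 49.0 ± 3.13, and here the ranges of the groups overlapped. Within that sum the share of MXI1 went from 20.8% ± 0.24 to 31.0% ± 1.69. The ratio of the activator sum to the sum of the MXD genes and MNT was between 0.353 and 0.375 in WT and between 0.532 and 0.583 in the libraries labelled ΔTUT4/7. MYC-family transcripts per MAX transcript went from 0.697 ± 0.03 to 0.859 ± 0.03. These sums describe transcripts, not proteins or bound pairs, and carry no test.

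**Figure D3:**
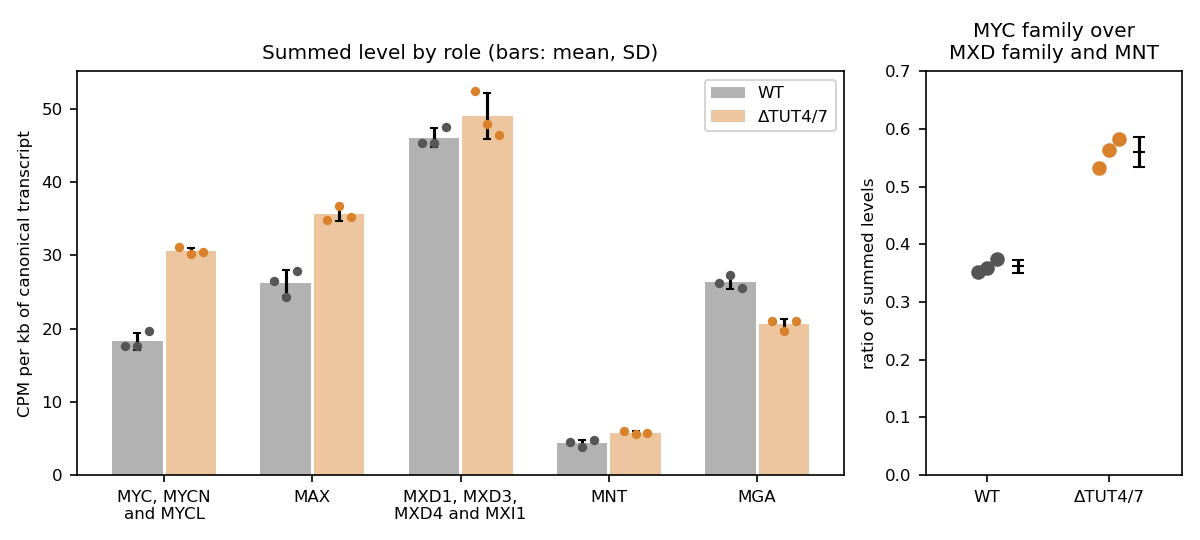
Left, summed CPM per kb of canonical transcript by role (bars are means of 3 libraries, whiskers SD, points libraries). Right, the ratio of the activator sum to the sum of the MXD genes and MNT in each library, which lay between 0.353 and 0.375 in WT (grey) and between 0.532 and 0.583 in the libraries labelled ΔTUT4/7 (orange).

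Over the 6 libraries, the genes whose log2 CPM profile lay closest to that of MYC were PRXL2A, AC145207.5 and DDX23, out of 13495 genes averaging at least 100 counts. Their root mean square differences from MYC were 0.02, 0.03 and 0.03 on the log2 scale. Since the libraries form 2 groups, this measure mainly tracks how far the groups differ.

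The network genes were next read for sequences that MYC and MAX or relevant miRNAs could recognise. RefSeq promoter windows on GRCh38.p14, from 250 bases before to 50 bases after the start, were present for 9 of the 10 genes, and none was given for MYC. CACGTG, which reads the same on both strands, occurred in the windows of MXD4 and MNT and in none of the windows of the other 7. Both genes with a match are repressors that rose in the libraries labelled ΔTUT4/7, but MXI1 and MAX rose further without a match. Of 35116 windows of all genes, 7.26% held the motif, and of 13867 genes of the count table with a window, 11.5% did in at least 1 window. The matches are shown with the motif in capitals, 5′ to 3′ on the strand of the gene. They lie at chr4:2262300-2262359 for MXD4, 238 bases before its start, and at chr17:2401221-2401280 for MNT, 193 bases before its start, both on the minus strand.
MXD4: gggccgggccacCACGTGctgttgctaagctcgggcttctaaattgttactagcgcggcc
MNT: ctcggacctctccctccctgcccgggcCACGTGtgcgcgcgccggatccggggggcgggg

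TUT4 and TUT7 are known to act on precursors of let-7 miRNAs, and let-7 and miR-34 are both described as repressors of MYC family mRNAs, which is why their sequences are shown. The seed, bases 2 to 8, is in capitals in the RefSeq mature sequences. All 8 let-7 5p miRNAs in the RefSeq table share 1 seed. No miRNA levels were part of the data used here.
hsa-let-7a-5p: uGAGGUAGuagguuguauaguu
hsa-miR-34a-5p: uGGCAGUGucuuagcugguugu

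The reverse complement of the let-7 seed as DNA, CTACCTC, occurred in the 3′ UTR of the GENCODE canonical transcript of 1 network gene, MXD1, at chr2:69939074-69939103 (GRCh38, plus strand). The reverse complement of the miR-34 seed, CACTGCC, occurred in 3 genes, with 3 matches in MXD4, 2 in MYCN and 1 in MNT. The match in MNT is at chr17:2386204-2386233 and the first of MXD4 at chr4:2250385-2250414, both on the minus strand. Neither motif was found in the canonical 3′ UTRs of MYC, MYCL, MAX, MXD3, MXI1 and MGA. Only matches to the whole seed were searched for, so shorter matches in these 3′ UTRs would have been missed. MXD1 with its let-7 match was lower in the libraries labelled ΔTUT4/7, and MXD4 and MNT with their miR-34 matches were higher. Such matches are frequent, since 10.99% of 14645 3′ UTRs of tested genes held the let-7 match and 17.4% the miR-34 match. Genes with the miR-34 match had a median log2 fold change of 0.035, against 0.047 without it, and were not higher as a set. With the let-7 match the median was -0.018, against 0.051 without it. Their 3′ UTRs were also longer, with medians of 3085.5 and 1161 bases. A part of the miRNAs in the member directions was not tested. The windows are shown with the match in capitals, on the strand of the gene.
MXD1, let-7 match: catttttttttcCTACCTCagagataaatg
MNT, miR-34 match: accaaacccagcCACTGCCaagcttcctgt
MXD4, miR-34 match: tgggctgcctggCACTGCCcgcttgccggt

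Of 10 listed genes at the MYC and MYCN loci, 6 were not analysed here, and the 3 analysed near MYC on chromosome 8 moved against it. PVT1, a long noncoding RNA gene downstream of MYC, fell from 99.1 ± 7.87 to 37.8 ± 2.32 CPM (2.62-fold lower, log2 fold change -1.39 ± 0.06, edgeR adjusted p = 1.42e-13). PCAT1, a noncoding RNA gene upstream, had 74, 121 and 126 counts in WT and 14, 9 and 9 in the libraries labelled ΔTUT4/7. POU5F1B, a retrogene of the pluripotency factor gene POU5F1 that overlaps the PCAT1 region, had 11, 11 and 24 counts against 2, 0 and 0. All 3 were called lower while MYC was called higher. PCAT1 and POU5F1B overlap on the same strand, so their counts may be shared.

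MLX is a second MAX-like partner that pairs with some MXD proteins and with the glucose sensors MLXIP and MLXIPL. MLX itself stood at 56.2 ± 1.41 CPM in WT and 53.2 ± 2.61 CPM in the libraries labelled ΔTUT4/7 (log2 fold change -0.08, edgeR adjusted p = 0.266). MLXIP (MondoA) rose by a log2 fold change of 0.70 ± 0.05 and MLXIPL (ChREBP) fell from 15.6 ± 2.23 to 7.88 ± 1.22 CPM. Their classic targets were both lower. ARRDC4 fell from 74.0 ± 3.20 to 28.1 ± 1.57 CPM (log2 fold change -1.40 ± 0.06, edgeR adjusted p = 4.11e-14), and TXNIP, an inhibitor of glucose uptake, from 40.3 ± 5.80 to 27.7 ± 3.13 CPM (-0.53 ± 0.11, edgeR adjusted p = 0.00282). The median log2 fold change of expressed genes within 5 Mb was 0.82 around MLXIP, 0.02 around MLXIPL, -0.72 around ARRDC4 and -0.01 around TXNIP. MLXIP thus rose no further than its region.

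Cofactors of the activators were mostly higher. Of 19 tested coactivator genes, 14 were higher (73.7%) and 2 lower (10.5%). Their median log2 fold change was 0.36, against -0.02 over all tested genes and 0.06 over the 15575 genes averaging at least 50 counts. Of all tested genes 28.6% were called higher and 29.0% lower, and of those 15575 genes 39.2% and 31.7%. The same shares are the background for the lists that follow. HCFC1, a host cell factor that binds MYC, rose from 180 ± 17.9 to 447 ± 9.96 CPM (2.48-fold). RUVBL1, an ATPase of the TIP60 and INO80 complexes, rose 1.95-fold and WDR5, which tethers MYC to chromatin, 1.67-fold. BPTF, the largest subunit of the NURF remodeller, fell from 460 ± 7.09 to 287 ± 7.38 CPM. Within 5 Mb, expressed genes had median log2 fold changes of -0.51 around BPTF and 0.58 around HCFC1, against own values of -0.68 and 1.31. The medians were -0.08 around RUVBL1 and 0.33 around WDR5. The acetyltransferase gene EP300 had a log2 fold change of -0.13 ± 0.04 and was called lower, but the GC and length correction took it to 0.0048.

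Corepressors of the MXD proteins and MNT were also higher more often than lower, in 10 and 4 of 16 tested genes, with a median log2 fold change of 0.35. SIN3A, the scaffold that MXD proteins bind, was among the 4, with a fall from 155 ± 3.25 to 96.5 ± 2.41 CPM (log2 fold change -0.68 ± 0.05, edgeR adjusted p = 3.37e-11). ARID4B and SAP18, which sit in the same complex, had log2 fold changes of -0.58 and -0.41. The SIN3 subunit genes BRMS1, ING1 and SUDS3 rose 2.24-fold, 2.23-fold and 1.89-fold. Transcripts of the SIN3 complex thus moved in both directions, but most of these genes moved with their regions. Expressed genes within 5 Mb had median log2 fold changes of -0.35 around SIN3A, -0.42 around ARID4B and -0.37 around SAP18. The medians were 1.00 around ING1 and 0.80 around SUDS3, against own values of 1.16 and 0.92. Around BRMS1 the median was 0.17, against its own 1.16.

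Partner genes of MGA in the PRC1.6 complex were higher in 6 and lower in 2 of 11 tested, with a median of 0.16. TFDP1, the dimerisation partner of E2F6, rose from 49.6 ± 1.39 to 138 ± 5.74 CPM (2.78-fold). The complex's own component PCGF6 rose 1.44-fold. RYBP fell from 66.6 ± 0.22 to 22.5 ± 2.63 CPM (2.98-fold lower, log2 fold change -1.58 ± 0.07, edgeR adjusted p = 5.68e-14) and RING1, a ubiquitin ligase subunit, from 26.99 ± 1.62 to 19.0 ± 1.76 CPM. Much of the change in RYBP and TFDP1 was shared by their regions. Expressed genes within 5 Mb had a median log2 fold change of -1.40 around RYBP and 1.02 around TFDP1, which itself was at 1.48. The medians were 0.39 around PCGF6 and 0.02 around RING1. MGA and its partners keep germline genes silent in somatic cells. Of 22 listed germline genes, 11 were not analysed here and 3 had too few reads. Of the 8 tested, none was higher and 4 were lower, namely STK31, SMC1B, ZCWPW1 and HSF2BP, all of them with few counts in WT. STK31 had 64, 79 and 98 counts in WT and 1, 0 and 3 in the libraries labelled ΔTUT4/7.

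MYC protein is short-lived, and the genes that control its turnover were higher in 16 and lower in 4 of 26 tested, with a median of 0.30. Of the ubiquitin ligases that target MYC, SKP2 rose from 207 ± 7.80 to 404 ± 7.49 CPM while FBXW7 fell from 87.2 ± 2.41 to 52.8 ± 0.51 CPM (log2 fold changes 0.96 ± 0.04 and -0.72 ± 0.05, edgeR adjusted p = 6.49e-14 and 8.64e-11). TRIM32 fell by 0.87 on the log2 scale. USP36, a nucleolar deubiquitinase of MYC, rose 1.75-fold, and SET, an inhibitor of the phosphatase PP2A, rose 1.79-fold. USP37, another deubiquitinase, had a log2 fold change of -0.28 and was called lower. Around the genes named here, expressed genes within 5 Mb had median log2 fold changes from -0.32 (FBXW7) to 0.27 (SET).

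Genes that act on MYC transcription or on its mRNA were higher in 9 and lower in 6 of 18 tested, with a median of 0.20. These are 50% and 33.3%, against 39.2% and 31.7% of the genes averaging at least 50 counts. CTNNB1, the coactivator of Wnt signalling, rose from 378 ± 22.1 to 670 ± 11.5 CPM, and its DNA-binding partner LEF1 fell from 26.1 ± 1.47 to 20.4 ± 0.68 CPM. CTCF, which insulates the MYC locus, rose 1.57-fold, and PUF60, a repressor of the far upstream element of MYC, 1.46-fold. IGF2BP2 and IGF2BP3, which encode proteins that bind and stabilise MYC mRNA, fell by 0.57 and 0.69 on the log2 scale. Within 5 Mb, expressed genes had median log2 fold changes of -0.70 around LEF1 and 0.41 around CTNNB1, against own values of -0.36 and 0.83. LEF1 thus fell less than its region. For the other genes named here these medians ran from 0.12 (IGF2BP3) to 0.25 (PUF60).

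Known targets that MYC activates were higher in 91 and lower in 12 of 110 tested genes, with a median log2 fold change of 0.70. Of all tested genes 28.6% were called higher, and of those averaging at least 50 counts 39.2%. The target lists were chosen with earlier results of these data known, so their counts are a description and not independent support. Among the nucleolar targets, which serve ribosome assembly, 40 of 40 were higher, with a median of 0.98. Of these, 19 rose 2-fold or more, as did 5.90% of all tested genes. RRP12, a ribosome export factor, rose from 30.8 ± 2.86 to 136 ± 2.23 CPM, UTP20, a component of the small subunit processome, from 76.3 ± 2.23 to 330 ± 6.06 CPM, and RRP9, a protein of the U3 snoRNP, from 10.0 ± 0.20 to 40.7 ± 2.83 CPM. These are changes of 4.43-fold, 4.33-fold and 4.05-fold, all larger than that of MYC.

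The other activated targets moved less evenly. Targets in translation, mitochondria and glycolysis were higher in 22 and lower in 2 of 26, with EIF5A, the hypusinated elongation factor, at 2.97-fold higher and EIF4G1 at 2.08-fold higher, while the cap-binding protein gene EIF4E fell from 100.02 ± 6.36 to 66.9 ± 1.08 CPM. Targets for nucleotides and polyamines were higher in 20 and lower in 4 of 28. ODC1, the rate-limiting enzyme of polyamine synthesis, rose from 99.6 ± 2.61 to 278 ± 11.3 CPM and SLC19A1, the reduced folate carrier, 3.24-fold, while the folate enzyme genes MTHFD2 and SHMT2 had log2 fold changes of -0.47 and -0.25. Cell cycle targets were split, with 9 higher and 6 lower of 16. Here CCND1 rose from 32.0 ± 3.53 to 116 ± 4.53 CPM and CDC25A 2.28-fold, whereas PLK4, the kinase of centriole duplication, was 2.04-fold lower and ID2 1.96-fold lower. Around EIF4E and PLK4, expressed genes within 5 Mb had median log2 fold changes of -0.70 and -0.83. EIF4E and PLK4 themselves were at -0.58 and -1.03, so they moved with their regions. For the other genes named here these medians ran from -0.02 (ODC1) to 0.51 (CDC25A).

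The promoters of these targets were searched for the same E-box. Of activated nucleolar targets with a window, 15 of 31 held CACGTG (48.4%), and of the targets for nucleotides and polyamines 11 of 25 (44%), against 11.5% of genes of the count table. The share was 8 of 22 (36.4%) for targets in translation, mitochondria and glycolysis and 3 of 12 (25%) for cell cycle targets. A high share was not limited to activated targets, since 8 of 18 germline genes (44.4%) and 2 of 5 genes of the MLX list (40%) held the motif. Of repressed targets, 1 of 12 held it (8.33%), which is below the 11.5% of genes of the count table. Within the activated targets, 30 of 37 tested genes with the motif (81.1%) and 48 of 53 without it (90.6%) were higher, while the median log2 fold change was 0.91 with it and 0.63 without it. Neither difference was tested. Over all tested genes with a window, 45% of 1500 with the motif and 36.2% of 11127 without it were higher, which is a description and was not tested. Windows of the strongly raised targets UTP20 and ODC1 and of CCNG2, a repressed target that was lower, are shown with the motif in capitals, on the strand of the gene. They lie at chr12:101280045-101280104 (plus), chr2:10448013-10448072 (minus) and chr4:77157147-77157206 (plus).
UTP20: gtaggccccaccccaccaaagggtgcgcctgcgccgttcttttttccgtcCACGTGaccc
ODC1: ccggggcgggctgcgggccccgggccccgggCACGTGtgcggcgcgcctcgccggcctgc
CCNG2: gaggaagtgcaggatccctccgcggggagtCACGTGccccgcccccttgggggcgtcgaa

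Known targets that MYC represses were higher in 5 and lower in 8 of 17 tested genes, with a median log2 fold change of -0.10. These are 29.4% and 47.1%, against 28.6% and 29.0% of all tested genes. Of genes averaging at least 50 counts, 39.2% were higher and 31.7% lower. CDKN1A, the p21 inhibitor of cyclin-dependent kinases, fell from 77.8 ± 4.98 to 7.63 ± 1.22 CPM (10.1-fold lower, log2 fold change -3.34 ± 0.09, edgeR adjusted p = 9.45e-17). NDRG1, named after its repression by MYCN, was 2.49-fold lower and CCNG2, an atypical cyclin, 2.25-fold lower. The Wnt antagonist gene SFRP1 moved the other way, from 8.15 ± 0.71 to 52.4 ± 1.89 CPM (6.39-fold), as did GAS1, a growth arrest gene, which rose 2.63-fold.

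**Figure D4:**
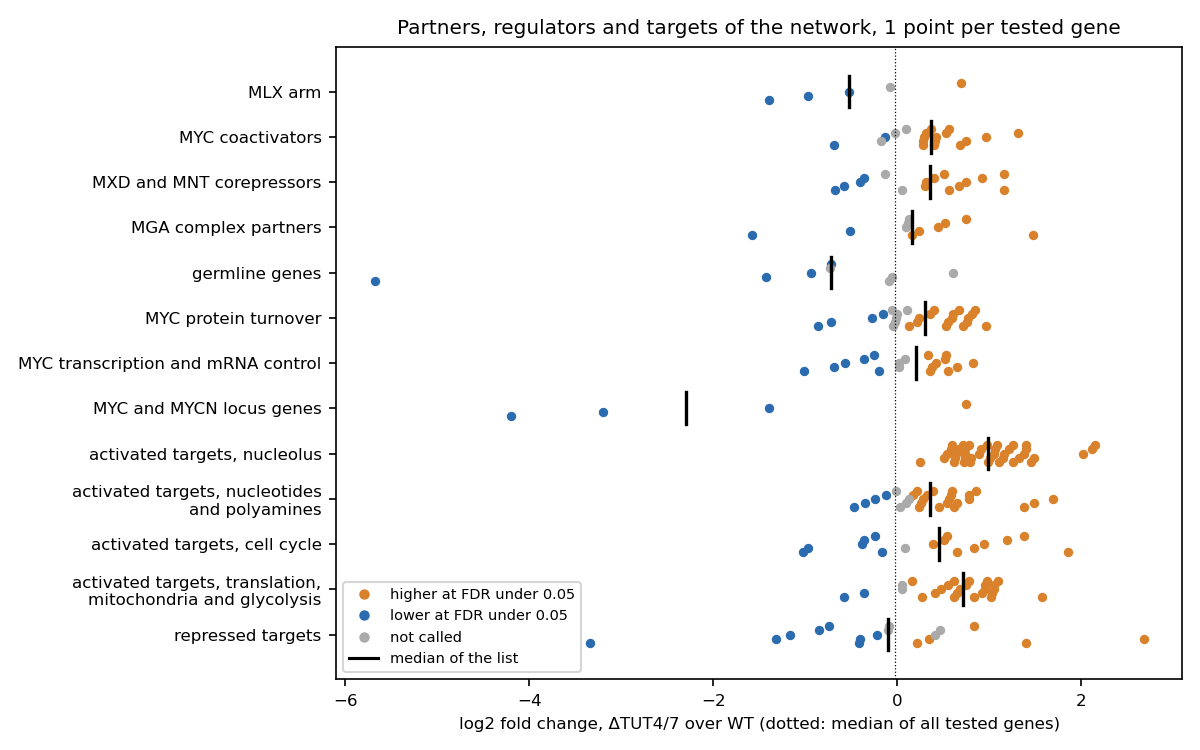
Log2 fold change (horizontal axis, libraries labelled ΔTUT4/7 over WT) of each tested partner, regulator and target gene, 1 point per gene, with orange for genes called higher, blue for genes called lower, grey for genes not called, a black line at the median of each list and a dotted line at -0.02, the median of all tested genes. All 40 nucleolar targets lie to the right of 0, while the repressed targets range from -3.34 to 2.68.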

How the data were processed

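Total RNA of 3 WT and 3 ΔTUT4/7 samples was sequenced. The authors aligned reads to hg38 with STAR 2.7.3a and deposited estimated counts per Ensembl gene from Partek Flow 10.0.22 (per the submitters' processing notes), which need not be whole and share reads between overlapping genes by a model. Read strand of the counting is not given in the sources used here. A deposited table of the authors' own comparison, with p-values, false discovery rates, ratios, fold changes and group means, was not used.

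Counts were rounded, and genes with a largest count above 12 were tested with edgeR 4.0.16 in R 4.3.3 (TMM, robust quasi-likelihood fit, group as the only term, Benjamini-Hochberg adjustment over 23952 genes). Untested genes held 0.096% of counts. Log2 fold changes carry the SE. CPM values and log2 profiles (prior count 2) use TMM-scaled library sizes. In counts simulated for these groups (22968 genes), 100 genes were changed 2-fold and 100 were changed 1.5-fold. The same steps recovered 95% of the 2-fold and 72% of the 1.5-fold changes. In the real counts 57.7% of genes were called, a far larger share, so these rates need not hold there. Of the table's genes, 98.57% matched GENCODE 44, which gave transcript lengths and 3′ UTRs. Ends are printed 1 base below the table's stop column.

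The members and lists were chosen with earlier results of these data known. Named genes are all members, TUT4, TUT7, all locus genes, the 3 genes nearest to MYC, and from each list up to 3 called genes per direction with the largest change, at least 100 counts on average and groups that do not overlap. One gene under this rule is not reported here. MLX, the 4 germline genes and the cell type markers were named after their values were seen. Alternatives were RLE, upper-quartile and library-size scaling, DESeq2 1.42.0, limma-voom and limma 3.58.1 on log2(CPM + 1), other count filters, a GC and length offset (mgcv 1.9.3), a block for the replicate number, leaving out libraries 1 at a time, and the difference from neighbours within 5 Mb.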

Additional observations from a re-analysis of the deposited data

How the results depend on the processing

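The 9 tested network genes kept their direction under all 16 tested alternatives, and MYC, MYCL, MAX, MXI1, MNT and MGA also stayed past the threshold. MYC ranged from 0.78 (library size alone) to 0.96 on the log2 scale. Calls of MXD1, MXD3 and MXD4 were lost under the alternatives named beside their values, so that 3 to 4 members were called lower when 1 library was left out. Library size alone and upper-quartile scaling moved the median of all tested genes by -0.11 and -0.10. Under both scalings 4 coactivator genes were called lower instead of 2, and under library size alone 8 turnover genes instead of 4. With a mean count of 50 or more, 1 germline gene was called lower instead of 4. EP300 turned to 0.0048 under the GC and length offset (edgeR adjusted p = 0.918). Without 1 library, between 1 and 3 coactivator genes were called lower (1 without WT replicate 3 and 1 without ΔTUT4/7 replicate 2). Of 512 counts under alternatives, 506 stayed within 1.5 times the reported count. The causes of these shifts were not tested.

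Replicate numbers were the same in both groups, but libraries with the same number did not deviate together (r between -0.02 and 0.05 over 3 pairs), so the numbers were taken as names. With the replicate block, 6832 genes were called higher and 6846 lower, against 6855 and 6958 without it, and 5 members were higher and 4 lower in both.

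Depth limited MYCN, the germline genes and POU5F1B, and each group stands for 1 line only.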
